A study of Thermomyces lanuginosus with 4 samples.

Results

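Among 9704 genes measured in Thermomyces lanuginosus, 96 were strongly raised when the fungus grew on Avicel, a brand of microcrystalline cellulose, relative to growth on glucose. The study compared mycelium of strain P134 cultured on Avicel with mycelium of the same strain cultured on glucose, in both cases 2 days old. Each carbon source had 2 libraries, and the labels do not say whether they came from separate cultures. Transcript levels are given as FPKM, the fragments assigned to a transcript per kilobase of its length and per 1000000 mapped fragments, as the authors deposited them. FPKM is corrected for transcript length, so levels of different genes in 1 library can be set side by side. Between libraries it is relative to all fragments of each library, and another scaling moves the number of members, from 96 as deposited to 120 with median-of-ratios scaling.

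The members were chosen by their measured values in all 4 libraries. A gene was kept when the mean Avicel FPKM plus 1, divided by the mean glucose FPKM plus 1, was at least 4. This quotient is called the ratio below. The gene also had to reach 20 FPKM in both Avicel libraries, and its lower Avicel value had to exceed its higher glucose value. The rule kept 0.989% of all genes. Because it used every library, the height of the members on Avicel over glucose is a description and no test of it is given.

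T. lanuginosus is a thermophilic filamentous fungus that is commonly described as a strong producer of xylanase with little or no cellulase activity. Filamentous fungi that grow on cellulose secrete endoglucanases and cellobiohydrolases, which cut the polymer into short sugars, and beta-glucosidases, which split cellobiose into glucose. In such fungi, genes for these enzymes and for sugar uptake are commonly induced by breakdown products of the polymer and kept low by glucose through carbon catabolite repression. This background describes the field. None of the 9704 IDs in the files, which have the form c8817_g1, occurs among the 8214 genes that RefSeq lists for another strain of the species, so no name, function or position is attached to any gene here. Members other than the highest by ratio are therefore referred to by their rank in mean Avicel level among the 96, from 1 for the most abundant to 96 for the least.

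The libraries were of like size on the deposited scale, with FPKM totals between 541446 and 556312 and between 7886 and 8145 genes at 1 FPKM or more. The number of reads behind these values is unknown. All libraries are of whole mycelium, so more transcript per hypha and more hyphae with the transcript cannot be told apart.

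The gene c8817_g1 stood far from all other members. It had 11094 and 10704 FPKM in the Avicel libraries, against 9.80 and 8.19 FPKM in the glucose libraries. The Avicel libraries averaged 10899 ± 276 FPKM and the glucose libraries 8.995 ± 1.14 FPKM (SD, n = 2 each), a ratio of 1091. It was the most abundant transcript of the mycelium on Avicel, while on glucose it ranked 5494 among the 9704 genes.

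The gene c1108_g1 had the second-highest ratio, 111. It had 7108 and 6933 FPKM in the Avicel libraries, against 63.2 and 60.8 FPKM in the glucose libraries, and ranked 2 on Avicel and 2168 on glucose. Both genes thus headed the Avicel profile, while on glucose c8817_g1 was weakly and c1108_g1 moderately expressed. Across the 4 ways of pairing an Avicel with a glucose library, the ratio lay between 991 and 1207 for c8817_g1 and between 108 and 115 for c1108_g1.

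A total of 8 further members exceeded 1000 FPKM in both Avicel libraries. Unlike the first pair, these members, ranked 3 to 10, were abundant on glucose as well. Their means were 1119 to 4155 FPKM on Avicel and 134 to 421 FPKM on glucose, with ratios from 5.78 to 9.85. The member ranked 3 had 4217 and 4093 FPKM in the Avicel libraries, against 409 and 433 FPKM in the glucose libraries. It was the seventh most abundant gene on Avicel, and on glucose it ranked 171, the highest place of any member there.

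The member ranked 4 had 2617 and 2490 FPKM in the Avicel libraries, against 335 and 356 FPKM in the glucose libraries. For the member ranked 5 the values were 1698 and 1691 FPKM on Avicel and 272 and 272 FPKM on glucose. The member ranked 6 had 1485 and 1450 FPKM in the Avicel libraries and 225 and 211 FPKM in the glucose libraries. In each of these genes the libraries of one carbon source lay close together, and the gap between carbon sources was many times wider. The rule asks for a wide gap between carbon sources, so this contrast is largely set by it. The members ranked 4 and 6 carry consecutive component numbers in their IDs and had ratios of 7.37 and 6.71. Of the 2 pairs of members with consecutive numbers, the other, ranked 67 and 78, had unlike ratios of 16.2 and 4.59. The resemblance of the members ranked 4 and 6 was noticed after the values were seen. Whether consecutive numbers relate the sequences is not stated.

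The members ranked 7 to 10 lay close together on Avicel, the level by which they were ranked. The lowest value among them in any Avicel library was 1106 FPKM and the highest 1181 FPKM. On glucose they ran from 133 to 202 FPKM, a wider range as a fold. The glucose level did not enter the ranking, so this contrast follows in part from the ordering. The member ranked 8 had 1136 and 1161 FPKM in the Avicel libraries, against 151 and 151 FPKM in the glucose libraries, a ratio of 7.56. The member ranked 9 had 1148 and 1123 FPKM on Avicel and the highest glucose level of the 4, 189 and 202 FPKM, with a ratio of 5.78.

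**Figure D1:**
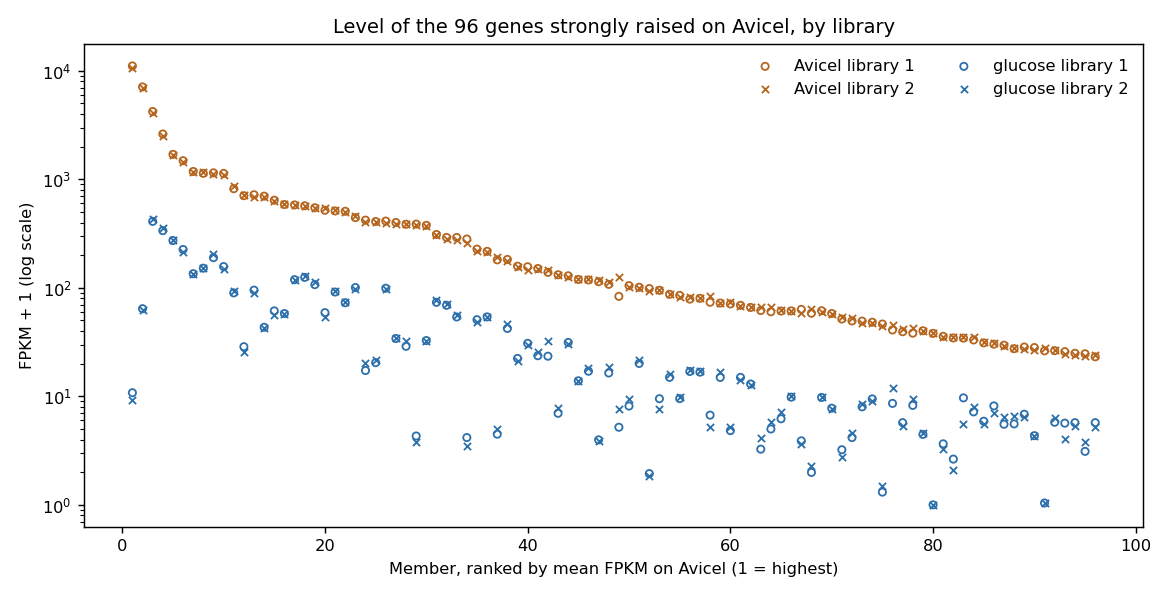
FPKM + 1 (log scale) of each of the 96 members in each of the 4 libraries, with members ordered by mean Avicel level; circles are first and crosses second libraries, orange for Avicel and blue for glucose. The Avicel points of a member nearly coincide, while the glucose points scatter, from a group of members above 100 FPKM at the left to members at or near 0.

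The next 10 members, ranked 11 to 20, lay between 528 and 840 FPKM on Avicel and between 26.0 and 125 FPKM on glucose (means of 2 libraries). The member ranked 12 stood out among them with 706 and 722 FPKM in the Avicel libraries, against 27.7 and 24.4 FPKM in the glucose libraries, a ratio of 26.4. The member ranked 14 followed with 699 and 682 FPKM in the Avicel libraries, against 42.3 and 41.4 FPKM in the glucose libraries, a ratio of 16.1. At the other end, the member ranked 18 had 570 and 564 FPKM on Avicel and 124 and 126 FPKM on glucose, a ratio of 4.51. Members of nearly the same Avicel level thus differed several-fold in how low they lay on glucose.

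Over all 96 members, the mean Avicel level ran from 22.7 FPKM through a median of 107 FPKM to 10899 FPKM. The mean glucose level ran from 0 through a median of 12.4 FPKM to 421 FPKM. Genes that met the same minimum of 20 FPKM in both Avicel libraries numbered 4334, and their median levels were 57.3 FPKM on Avicel and 61.3 FPKM on glucose. Among those genes 39.4% had both Avicel libraries above both glucose libraries, and 2.22% had a ratio of at least 4. Every gene at that minimum with a ratio of at least 4 also met the condition on separate groups, so this condition removed no gene.

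Most members had ratios not far above the threshold. The median ratio of the members was 7.09 and the quartiles were 4.85 and 12.0, beside a median ratio of 0.936 over the 4334 genes. A ratio between 4 and 5 was found in 26 members and one between 5 and 8 in 29, so that these bands held 27.1% and 30.2% of the members. Ratios from 8 to 16 were found in 21 members, ratios from 16 to 64 in 16, and ratios above 64 in 4.

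The 4 members above a ratio of 64 comprised c8817_g1, c1108_g1 and the members ranked 29 and 34. The member ranked 29 had 386 and 381 FPKM in the Avicel libraries, against 3.31 and 2.80 FPKM in the glucose libraries, a ratio of 94.8. The member ranked 34 had 281 and 260 FPKM in the Avicel libraries, against 3.17 and 2.47 FPKM in the glucose libraries, a ratio of 71.0. The members ranked 29 and 34 thus combined values above 100 FPKM on Avicel with values of a few FPKM on glucose. Among members above 100 FPKM on Avicel, the next by ratio was the member ranked 37, with 180 and 192 FPKM on Avicel and 3.48 and 4.03 FPKM on glucose, a ratio of 39.4.

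**Figure D2:**
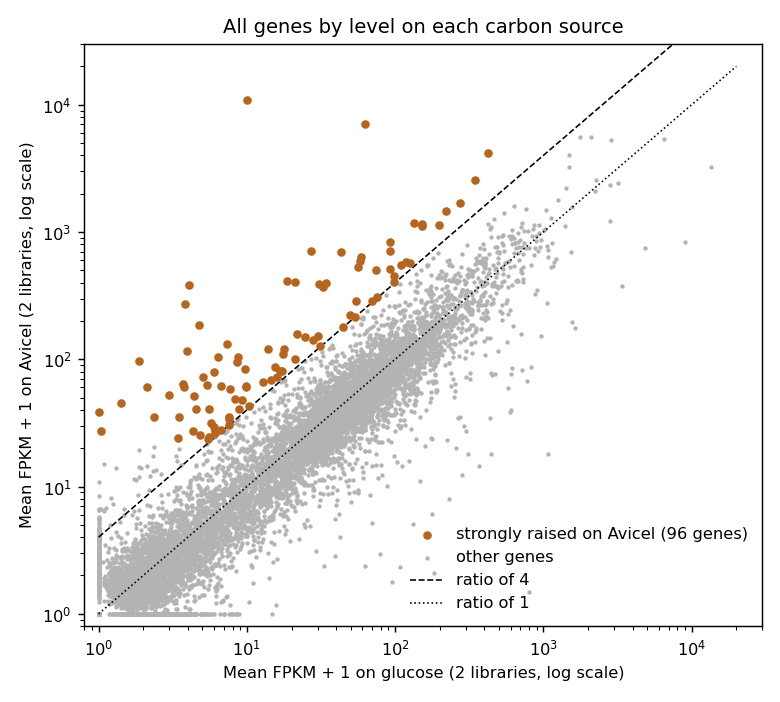
Mean FPKM + 1 on Avicel (vertical, log scale) against mean FPKM + 1 on glucose (horizontal, log scale) for all 9704 genes; the 96 members are orange, and lines mark ratios of 4 and 1. The members lie above the line for a ratio of 4 over the whole range of glucose levels up to 421 FPKM. Many are close to that line, while 41 have a ratio of at least 8 and 20 of at least 16. The gene c8817_g1 is at the top, far to the left of the other abundant members.

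The members fell into groups by how much transcript was recorded on glucose. A single member, ranked 80, was listed at 0 in both glucose libraries and had 37.1 and 37.3 FPKM in the Avicel libraries. A further 3 had a glucose mean above 0 but under 1 FPKM. The member ranked 52 of these had 97.5 and 92.6 FPKM in the Avicel libraries, against 0.94 and 0.83 FPKM in the glucose libraries. The member ranked 75 had 45.4 and 43.5 FPKM on Avicel and 0.31 and 0.50 FPKM on glucose, and the member ranked 91 had 25.3 and 27.1 FPKM on Avicel and 0.04 and 0.04 FPKM on glucose. Few members were thus near silence on glucose under this rule, and their ratios of 26.2 to 50.9 were bounded by the added 1 FPKM. Among genes that are not members, at any Avicel level, 1488 had a glucose mean under 1 FPKM. A gene that low on glucose is a member whenever it reaches 20 FPKM in both Avicel libraries. All of these 1488 genes therefore missed that minimum, and the contrast with the members is set by the rule. The number of members under 1 FPKM on glucose depends on the minimum of 20 FPKM on Avicel. With no minimum, 34 of 142 members were under 1 FPKM in both glucose libraries, and with a minimum of 50 FPKM it was 1 of 71.

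The largest group, 43 members, had glucose means from 1 to 10 FPKM. Its median Avicel level was 50.2 FPKM and its median ratio 8.69, and c8817_g1 was its most abundant gene on Avicel. Another 38 members had glucose means from 10 to 100 FPKM, with a median of 285 FPKM on Avicel and a median ratio of 5.85. In 11 members the glucose mean was 100 FPKM or more. These had a median of 1148 FPKM on Avicel and ratios between 4.51 and 9.85.

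The position of the members among all genes shifted accordingly. The rule asks for a level on Avicel well above that on glucose, so this shift is largely set by it. On Avicel, 3 members were among the 10 most abundant genes, 14 among the 100 most abundant and 48 among the 1000 most abundant. On glucose, none was among the 100 most abundant and 10 were among the 1000 most abundant. The median rank of the members was 1038 on Avicel and 5187 on glucose. On glucose, 42 members lay above and 54 below the median of all genes, 16.4 FPKM.

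Members that were higher on Avicel also tended to be higher on glucose. Across the 96 members the levels on Avicel and on glucose had a Spearman correlation of 0.81, and across the 4334 genes at the same minimum it was 0.80. Within the members the rule sets a lower bound on the Avicel level at each glucose level, and all genes share the same libraries, so these values only describe the spread of points. The ratio itself followed the Avicel level weakly, with a Spearman correlation of 0.20 across the members, and with the glucose level it had one of -0.35. The ratio is computed from both levels, so neither value is independent of it.

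The members together made up 8.93% and 8.74% of the summed FPKM in the Avicel libraries, against 0.745% and 0.735% in the glucose libraries. The Avicel libraries averaged 8.83% ± 0.14 and the glucose libraries 0.740% ± 0.007 (SD, n = 2 each). The sum was concentrated in a few genes. On Avicel, c8817_g1 alone held 1.97% ± 0.05 and c1108_g1 1.27% ± 0.03 of the library's summed FPKM (SD, n = 2), against 0.0016% and 0.011% on glucose. The 4 most abundant members held over 50% of the members' summed FPKM on Avicel.

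Without c8817_g1 and c1108_g1, the other 94 members held 5.59% ± 0.06 of the sum in the Avicel libraries and 0.727% ± 0.006 in the glucose libraries (SD, n = 2 each). The quotient of these shares was 7.69, against 11.9 with both genes included. The 8 members ranked 3 to 10 held 2.61% on Avicel and 0.344% on glucose, and the 86 members ranked 11 to 96 held 2.97% on Avicel and 0.383% on glucose. The quotients of the Avicel and glucose shares were 7.60 and 7.76 in these sets. Their closeness depends on leaving c8817_g1 and c1108_g1 out of the abundant set: for the members ranked 1 to 10 the quotient was 16.4. The set ranked 11 to 96 kept its own members of high ratio, such as those ranked 29 and 34. The mirrored rule, with the carbon sources exchanged, found 98 genes that were strongly lowered on Avicel. Those held 1.47% ± 0.04 of the sum in the Avicel libraries and 9.98% ± 0.05 in the glucose libraries (SD, n = 2 each), so the raised genes had a lower combined level on glucose, 0.740%, than the lowered genes kept on Avicel.

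**Figure D3:**
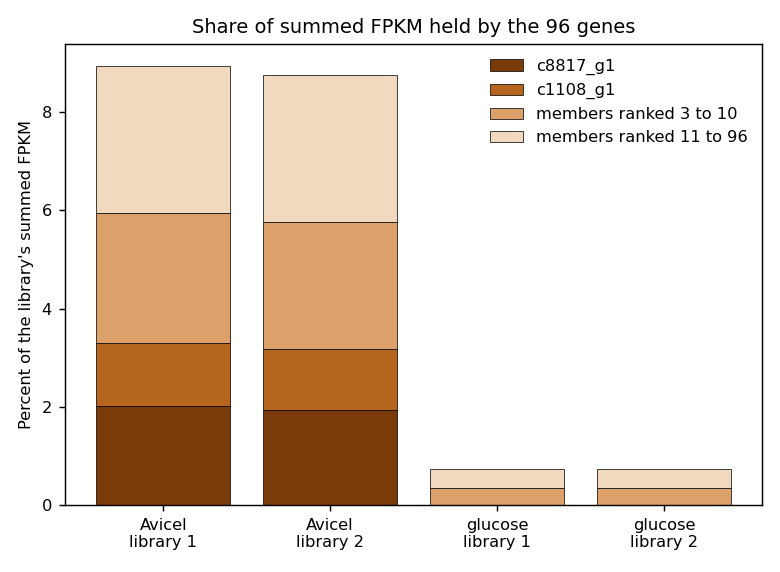
Percent of each library's summed FPKM held by the 96 members, stacked as c8817_g1, c1108_g1, the members ranked 3 to 10 and those ranked 11 to 96, with 1 bar per library. The members hold 8.93% and 8.74% in the Avicel libraries and 0.745% and 0.735% in the glucose libraries, where the first pair is too small to see.

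The replicate libraries agreed closely for the members on Avicel. The difference between replicates is given here as the fold between their values of FPKM plus 1, less 1. Its median over the 96 members was 2.61% on Avicel, and over the 4238 other genes of at least 20 FPKM in both Avicel libraries it was also 2.61%. The replicates lay within 5% of each other in 75 members (78.1%) and in 76.3% of those other genes. The rule limits the distance between replicates only through its minimum and through the condition on separate groups. No test across genes was made, since genes are not independent replicates.

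A single member, ranked 49, differed by more than 25% between the Avicel libraries. It had 82.5 and 125 FPKM there, against 4.19 and 6.57 FPKM in the glucose libraries. Its ratio ranged from 11.03 to 24.3 over the 4 library pairings, the widest range of any member, a 2.21-fold span.

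On glucose the members differed more between replicates, with a median of 6.79%, beside 4.37% for the same other genes. Members were mostly low on glucose, and the difference varied with the level there. Between 10 and 100 FPKM on glucose it was 4.75% for members and 4.77% for all other genes in that range. At 100 FPKM or more it was 4.66% for members and 4.45% for other genes, and between 1 and 10 FPKM it was 12.3% for members and 19.9% for other genes. Under 1 FPKM it was 3.01% for the 4 members, of which 1 was listed at 0 in both libraries, and 20.5% for other genes. The added 1 FPKM shrinks differences at such levels. The member ranked 75, at 0.31 and 0.50 FPKM, counts as a difference of 14.5%. With 0.1 or 10 FPKM added in place of 1, the median over the members on glucose was 7.91% or 3.66%. The largest difference on glucose was in the member ranked 83, with 33.4 and 34.3 FPKM in the Avicel libraries, against 8.68 and 4.58 FPKM in the glucose libraries.

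By number of members, neither replicate was the higher by a wide margin. The first Avicel library was the higher for 51 members (53.1%) and the second for 45. The first glucose library was the higher for 44 members (45.8%) and the second for 50, with 2 equal. Among the other genes at the same minimum, the first library was the higher in 49.3% on Avicel and 47.1% on glucose. These counts ignore the size of the differences. The rule kept 93 genes without the first glucose library and 107 without the second.

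**Figure D4:**
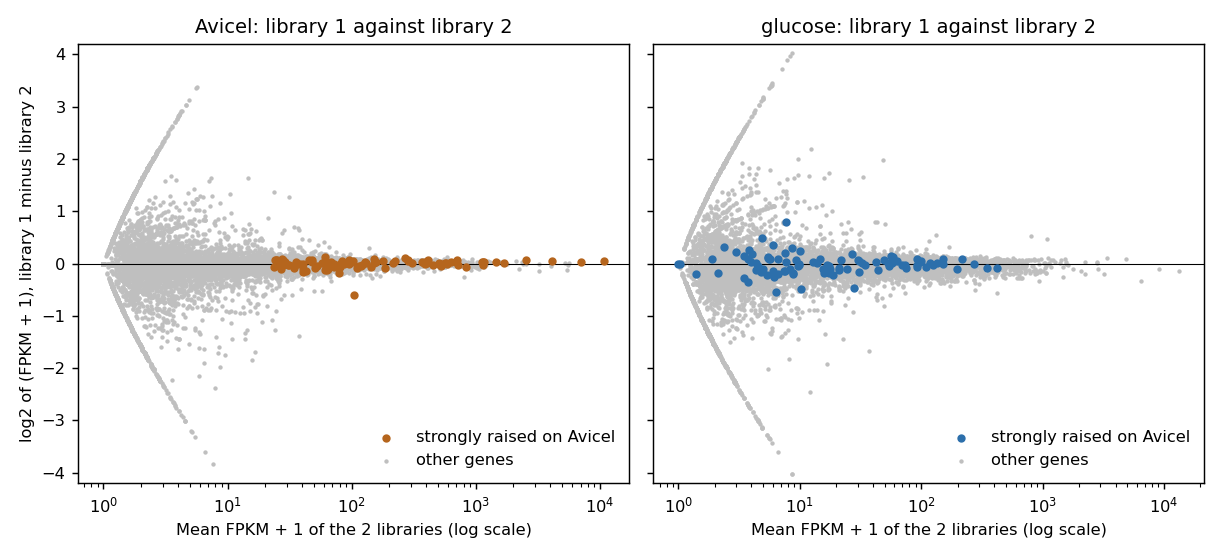
Difference of log2(FPKM + 1) between the first and second library of each carbon source (vertical) against the mean FPKM + 1 of both (horizontal, log scale), for Avicel at the left and glucose at the right; members are coloured and other genes grey. Members lie near 0 on Avicel except the member ranked 49, and spread more on glucose.

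The ratio was also taken in single pairs of libraries. The rule had set it to at least 4 in the means of the same libraries, so the counts that follow are largely fixed by that choice and only show which members lie near the threshold. In 87 of the 96 members it was at least 4 in all 4 pairings of an Avicel with a glucose library. The other 9 members fell below 4 in at least 1 pairing, and the lowest pairing value of any member was 3.40, in the member ranked 76. That gene had 39.9 and 44.4 FPKM in the Avicel libraries and 7.61 and 11.03 FPKM in the glucose libraries. The median span between the lowest and highest pairing of a member was 1.11-fold, and 3 members had a span above 1.5-fold. In 92 members the lower Avicel value was at least 4 times the higher glucose value without any added FPKM, and the smallest such quotient was 3.62.

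The thresholds cut through a continuous range of genes. Just inside the ratio of 4 was a member with 29.3 and 30.0 FPKM in the Avicel libraries, against 7.16 and 6.07 FPKM in the glucose libraries, at a ratio of 4.02. Just outside was a gene with 22.5 and 24.3 FPKM on Avicel and 4.36 and 5.89 FPKM on glucose, at 3.98. The next on each side were a member with 216 and 214 FPKM on Avicel and 53.0 and 52.5 FPKM on glucose, also at 4.02, and a gene with 20.3 and 20.5 FPKM on Avicel and 4.27 and 4.52 FPKM on glucose, at 3.97. At the minimum of 20 FPKM, the lowest member had 22.1 and 23.3 FPKM on Avicel and 4.72 and 4.26 FPKM on glucose, and the next 23.7 and 22.5 FPKM on Avicel and 2.11 and 2.78 FPKM on glucose. The nearest gene outside had 18.7 and 19.96 FPKM on Avicel and 1.23 and 1.49 FPKM on glucose, at a ratio of 8.62. The next outward had 18.2 and 19.3 FPKM on Avicel and 2.58 and 2.40 FPKM on glucose. In all, 58 genes had a ratio of at least 4 without reaching the minimum in both Avicel libraries.

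Each ID joins a component number, after the letter c, to a gene number, after the letter g, and the rule used neither. The 96 members came from 96 different components, so no member shared a component number with another. The members were spread over the range of component numbers, with 23, 23, 23 and 27 of them in 4 equal parts of all genes ordered by that number. The gene number was 1 for 95 members (99.0%), and for 96.8% of all genes. A component with several genes was the source of 4 members (4.17%), of 4.53% of the other genes at 20 FPKM or more in both Avicel libraries and of 5.998% of all genes.

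In these 4 components each member had 1 partner gene, and the partners had ratios between 0.60 and 1.02. The partner of c8817_g1 had 2.64 and 3.35 FPKM in the Avicel libraries, against 1.58 and 4.37 FPKM in the glucose libraries. The partner of the member ranked 80, which was listed at 0 on glucose, had 54.6 and 52.9 FPKM on Avicel and 92.1 and 88.8 FPKM on glucose. In that component 1 gene was thus listed at 0 on glucose while the other was lower on Avicel than on glucose.

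The partner of the member ranked 76 was abundant on both carbon sources, with 598 and 592 FPKM on Avicel and 594 and 573 FPKM on glucose, a ratio of 1.02. The partner of the member ranked 72 had 26.7 and 25.6 FPKM in the Avicel libraries, against 39.0 and 36.8 FPKM in the glucose libraries, while the member itself had 48.6 and 51.8 FPKM on Avicel and 3.17 and 3.57 FPKM on glucose. Genes of 1 component may be related sequences whose reads are hard to assign, and the files do not show how reads were divided among them, so the levels of these 4 pairs are uncertain. The gene with the steepest change, c8817_g1, is among them, with a partner at a few FPKM on both carbon sources.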

How the data were processed

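RNA of 2-day-old mycelium was sequenced in 4 libraries, 2 on Avicel and 2 on glucose, grouped by the treatment labels. The authors deposited 1 FPKM value per gene and library, rounded to 2 decimals, per the file headers. The submitters' processing notes name RSEM 1.2.15 and Bowtie2; for the version of Bowtie2, the reference sequence, the annotation and any filter, nothing is stated in these sources. No counts are given, so the depth is unknown and no counting interval or floor is stated.

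From the deposited FPKM, the ratio, means, SD, shares and ranks were computed in Python 3.11.15 with pandas 2.3.3 and numpy 2.4.6, over all 9704 genes without further scaling. The rule was checked on made-up tables with known members. Those members were planted well inside the thresholds with little noise, so the check does not bear on members near them. No significance test was made, because the rule used the same contrast in all 4 libraries. The genes named by ID are the 2 with the highest ratio; other members are given by rank, chosen as the 20 most abundant, by glucose level and by closeness to the thresholds. Other members, such as those ranked 49, 72, 76 and 83, were picked after their values were seen. The members and criteria were chosen with earlier results of these data known. The alternatives were pseudocounts of 0.1 and 10, minima of 0, 10 and 50 FPKM, ratios of 3 and 5, a geometric mean, TPM, median-of-ratios scaling and each library left out.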

Additional observations from a re-analysis of the deposited data

How the results depend on the processing

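No paired analysis was possible because the values are descriptions with no fitted test, and no label ties an Avicel library to a glucose library through a common culture or day. The members numbered 96, with a median ratio of 7.09, and held 8.83% of the Avicel and 0.740% of the glucose libraries' summed FPKM; 20 had a ratio of at least 16 and 4 were under 1 FPKM in both glucose libraries. With a pseudocount of 0.1, the median ratio was 6.72 and the share on glucose 0.758%. With a pseudocount of 10, 58 members were left, 5 of them at a ratio of at least 16, with a median ratio of 6.25 and shares of 8.27% on Avicel and 0.622% on glucose. The ratio of c8817_g1 was then 574. With no minimum there were 142 members with a median ratio of 6.29, of which 34 were under 1 FPKM in both glucose libraries and 2 shared a component number. A minimum of 10 FPKM gave a median ratio of 6.86 and 8 members under 1 FPKM. A minimum of 50 FPKM gave a median ratio of 7.56, shares of 8.68% and 0.720%, and 1 member under 1 FPKM.

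A least ratio of 3 gave 160 members, a median ratio of 4.55 and shares of 11.7% on Avicel and 1.59% on glucose; a least ratio of 5 gave a median ratio of 9.32 and shares of 8.10% and 0.576%. As TPM, with the same thresholds, the share on glucose was 0.748%. Median-of-ratios scaling, which moved the median log2 ratio of all genes from -0.16 to -0.01, gave 120 members, the first 96 among them, with a median ratio of 6.41 and shares of 9.30% and 0.863%. Relative to the genes of at least 20 FPKM on Avicel, the members' median log2 ratio was 2.92 as deposited and 2.91 after that scaling. Leaving out 1 library gave 93 to 107 members, of which 93 to 96 were among the first 96, median ratios of 6.51 to 7.37, and shares of 8.74% to 8.98% on Avicel and 0.711% to 0.775% on glucose. The unknown depth limits the low glucose values most: the number of reads behind the 4 members under 1 FPKM cannot be given.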
